A study of Mus musculus with 12 samples.

Results

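The histone mark H4K12ac, acetylation of lysine 12 of histone H4, was read at 8 genes that encode transcription factors of hippocampal excitatory neurons: Prox1, Zbtb20, Neurod1, Neurod2, Neurod6, Bcl11b, Mef2c and Emx1. The rule names them and uses no measured value, although earlier results of these data were known when they were chosen from 55413 annotated mouse genes (GENCODE M21, GRCm38). The measurements were lists of H4K12ac peaks, genomic intervals in which immunoprecipitated DNA exceeded input DNA, from 5 Tip60 cKO and 5 control libraries. Nuclei came from whole hippocampus of adult mice labelled male, C57BL/6J and 3 months old, while the study's methods name C57BL/6 N mice of either sex. The nuclei were fixed, sorted by FACS as neuronal, and used for chromatin immunoprecipitation. Tip60 cKO mice carried Tip60 f/f and the CaMKCreERT2 driver, controls were littermates with floxed Tip60 and no driver, and all had received tamoxifen.

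Tip60, whose gene symbol is Kat5, is a lysine acetyltransferase that acts on histone H4. The Camk2a promoter drives the recombinase in excitatory forebrain neurons, so interneurons and glia keep the gene in the Tip60 cKO. In these bulk nuclei, fewer nuclei of a type and less acetylation per nucleus cannot be told apart. Acetylation of histone tails marks promoters and enhancers that are open for transcription, and a peak caller reports only what passes its threshold, so a region with no peak is below that threshold and not necessarily without the mark. The labels do not say whether each library came from a single mouse, so p-values measure the spread between these libraries.

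The 8 factors act in the formation or identity of excitatory neurons of the hippocampus. The homeobox factor Prox1 specifies dentate granule cells, and the zinc finger repressor Zbtb20 acts in hippocampal pyramidal cell identity. Neurod1, Neurod2 and Neurod6 are basic helix-loop-helix factors that bind E-box sequences and drive neuronal differentiation. Bcl11b, also called Ctip2, is a zinc finger factor of CA1 and dentate neurons. Mef2c is a MADS-box factor that responds to neuronal activity and limits synapse number. Emx1 is a homeobox factor of the dorsal telencephalon from which cortical and hippocampal excitatory neurons arise.

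The lists differed in length. Tip60 cKO libraries held 22864189 to 37077725 tags and gave 64245 to 135494 peaks covering 22.6 to 59.5 Mb of the genome, and control libraries held 27418740 to 37923809 tags and gave 93575 to 136409 peaks covering 39.6 to 65.5 Mb. Tip60 cKO replicate 5 had the shortest list. Replicates 1 to 3 of both genotypes carried lane 7 in their run names and replicates 4 and 5 carried lane 8. The sort was checked on marker genes. A peak at the transcription start site (TSS) was present in all 10 lists at 5 of 5 neuron markers, 3 of 4 excitatory, 0 of 9 inhibitory, 0 of 4 astrocyte, 1 of 6 oligodendrocyte, 0 of 5 microglia and 0 of 4 endothelial markers, and in any list at 5, 4, 6, 2, 2, 0 and 3 of them. The oligodendrocyte marker with a peak in all lists was Mbp (TSS coverage 44.4 ± 11.6% in Tip60 cKO, 52.6 ± 2.39% in control, exact permutation p = 0.159). At the astrocyte marker Gfap coverage was 0 to 8.35% in Tip60 cKO libraries and 12.9 to 25.8% in the controls (exact permutation p = 0.00794), and the part of other cell types in the results was not tested. Mean coverage was lower in Tip60 cKO at 5 of 5 neuron markers, with the largest relative differences at Syt1 (29.2% against 51.4%, without overlap) and Tubb3 (28.3% against 52.5%) and smaller ones at Rbfox3 (37.6% against 41.0%, exact permutation p = 0.635) and Snap25 (43.9% against 50.6%, exact permutation p = 0.421). At the excitatory markers it was lower at 3 and higher at 1, Camk2a (80.8% against 70.9%), with 0 of 4 at an unadjusted exact p under 0.05. Mean coverage was higher at 5 and lower at 1 of the inhibitory markers, where the 5 had peaks in 1 or 2 Tip60 cKO lists and in no control list, and higher at 3 of the endothelial markers. The markers named here were singled out after their values were seen. At Kat5 itself, TSS coverage was 41.2 ± 9.42% in Tip60 cKO and 44.9 ± 3.87% in control (SD, n = 5 each, exact permutation p = 0.532), so these peaks do not show the deletion.

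H4K12ac covered less of the TSS window in the Tip60 cKO mean than in the control mean at all 8 genes, and the exact test passed at 3 of them, Zbtb20, Neurod1 and Emx1. Coverage is the percentage of bases within 2 kb of the TSS that lie in peaks. This direction was the general one: the difference was negative at 77.9% of the 23984 genes with any TSS coverage, and the median relative change there was -22.9%. By the two-sided exact permutation test (5 against 5, smallest possible p 0.00794), 16.9% of these genes were lower at an unadjusted p under 0.05, against 3 of the 8 members. None of the 8 had genotypes without overlap, against 4.72% of all genes. No member passed Benjamini-Hochberg adjustment over all genes for TSS, gene body or flank coverage. The members' coverage moved with the length of the lists: the mean of the 8 TSS coverages followed the number of peaks per list with r = 0.816 over the 10 libraries, a description of libraries that share depth and genotype.

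**Figure D1:**
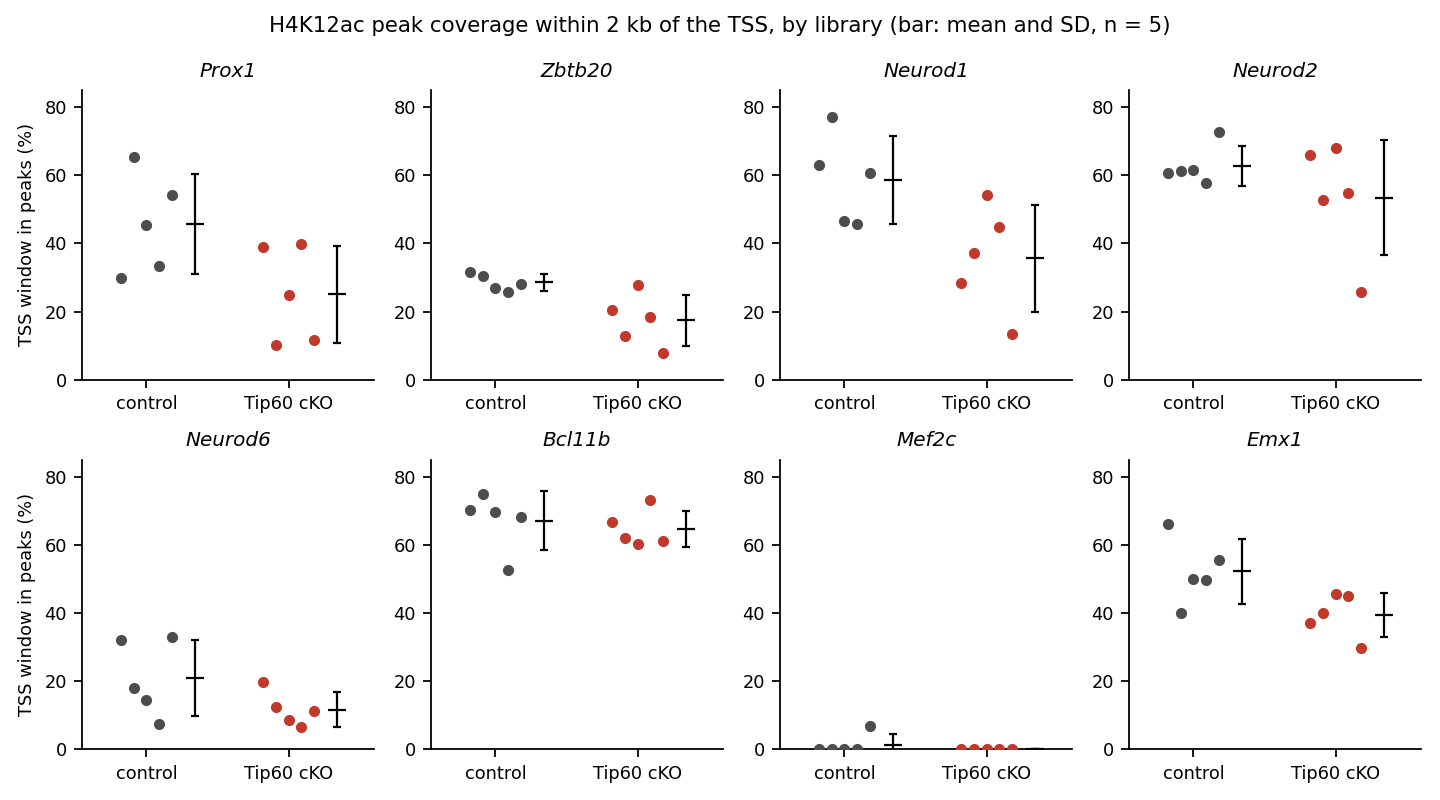
H4K12ac coverage of the TSS window (percent of bases in peaks, vertical axis) at the 8 genes, with 1 point per library, Tip60 cKO and control side by side, and bars for the mean and SD (n = 5 each). Every Tip60 cKO mean lies below its control mean, Bcl11b and Neurod2 are high in both genotypes, and Mef2c is at 0 in all libraries except control replicate 5.

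In control nuclei the order of TSS coverage, a value per length, was Bcl11b (67.1 ± 8.55%), Neurod2 (62.8 ± 5.82%), Neurod1 (58.6 ± 13.0%), Emx1 (52.3 ± 9.53%), Prox1 (45.7 ± 14.6%), Zbtb20 (28.5 ± 2.44%), Neurod6 (20.9 ± 11.2%) and Mef2c. The ranges of neighbours in this order overlapped except for Neurod6 and Mef2c, where the lowest Neurod6 library (7.30%) lay above the highest Mef2c library (6.77%).

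Prox1 (ENSMUSG00000010175.13) lies at chr1:190118035-190170714 on the minus strand with no other protein-coding gene within 50 kb. Its TSS coverage was 39.0, 10.1, 24.8, 39.7 and 11.7% in Tip60 cKO replicates 1 to 5 and 29.9, 65.4, 45.5, 33.5 and 54.1% in control replicates 1 to 5. Tip60 cKO replicates 2, 3 and 5 lay below all controls and replicates 1 and 4 lay among them. The means were 25.1 ± 14.2% and 45.7 ± 14.6%, a relative change of -45.1% (exact permutation p = 0.0714).

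Zbtb20 (ENSMUSG00000022708.16) spans 767 kb at chr16:42875881-43642602 on the plus strand and has 21 transcripts, 20 of which start more than 2 kb from the first. At the first TSS the coverage was 20.4, 12.9, 27.7, 18.3 and 7.75% in Tip60 cKO and 31.5, 30.6, 26.9, 25.7 and 27.97% in control. Only Tip60 cKO replicate 3 reached the control range. The means were 17.4 ± 7.57% and 28.5 ± 2.44% (exact permutation p = 0.0238, adjusted p = 0.220). The difference of means was -9.31 points among lane 7 libraries and -13.8 among lane 8 libraries. With 1 kb windows the p was 0.175, and with the windows of all transcript starts joined it was 0.0794.

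The 3 NeuroD genes are compact, 3442 to 4234 bp long and all on the minus strand, so the TSS window takes up a large part of each gene. Neurod1 (ENSMUSG00000034701.9) lies at chr2:79452521-79456751, and the first exon of an annotated Cerkl transcript overlaps its start. Coverage at its TSS was 28.4, 37.1, 54.3, 44.7 and 13.3% in Tip60 cKO and 63.0, 77.1, 46.7, 45.6 and 60.7% in control. Tip60 cKO replicate 3 alone lay above the lowest control. The means were 35.6 ± 15.7% and 58.6 ± 13.0% (exact permutation p = 0.0317, adjusted p = 0.241), with differences of -22.4 points in lane 7 and -24.1 in lane 8. With 1 kb windows the p was 0.103, and it was 0.0635 to 0.0873 without Tip60 cKO replicate 1, 2 or 5 or control replicate 1, 2 or 5.

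Neurod2 (ENSMUSG00000038255.6, chr11:98325415-98329648) had coverage of 66.0, 52.7, 68.1, 54.7 and 25.9% in Tip60 cKO and 60.7, 61.2, 61.6, 57.6 and 72.8% in control. The genotypes overlapped, and Tip60 cKO replicate 5, the library with the shortest list, was the lowest of the 10. The means were 53.5 ± 16.8% and 62.8 ± 5.82% (exact permutation p = 0.310). The sign of the difference turned between lanes, 1.09 points in lane 7 and -24.9 in lane 8. Neurod6 (ENSMUSG00000037984.9, chr6:55677822-55681263) was the least covered of the family, at 19.7, 12.5, 8.45, 6.42 and 11.1% in Tip60 cKO and 32.02, 18.05, 14.3, 7.30 and 32.9% in control. The ranges overlapped (11.6 ± 5.07% against 20.9 ± 11.2%, exact permutation p = 0.143).

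The promoter sequences of Bcl11b and Neurod2, the most covered TSSs, and of Neurod6 and Mef2c, the least covered, are given to show both ends of the order. Each is the stretch before the first annotated exon base, read 5′ to 3′ on the gene's own strand (RefSeq, GRCm38.p6), and capitals mark matches to the motifs searched, here GGGCGG (GC-box), CAGATG (an E-box) and TGACG (CRE core), on either strand.
Bcl11b, chr12:108003603-108003664, minus strand: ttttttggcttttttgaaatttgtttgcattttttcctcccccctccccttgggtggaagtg
Neurod2, chr11:98329649-98329895, minus strand: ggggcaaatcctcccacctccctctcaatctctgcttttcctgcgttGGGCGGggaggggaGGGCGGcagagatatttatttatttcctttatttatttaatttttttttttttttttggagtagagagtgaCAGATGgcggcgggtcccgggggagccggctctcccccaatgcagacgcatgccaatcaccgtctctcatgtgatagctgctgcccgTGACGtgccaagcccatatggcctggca
Neurod6, chr6:55681264-55681513, minus strand: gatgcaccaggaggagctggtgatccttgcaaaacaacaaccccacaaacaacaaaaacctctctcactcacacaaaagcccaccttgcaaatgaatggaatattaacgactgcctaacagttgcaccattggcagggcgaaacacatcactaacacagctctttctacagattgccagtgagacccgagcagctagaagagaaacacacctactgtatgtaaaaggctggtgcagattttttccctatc
Mef2c, chr13:83503784-83504033, plus strand: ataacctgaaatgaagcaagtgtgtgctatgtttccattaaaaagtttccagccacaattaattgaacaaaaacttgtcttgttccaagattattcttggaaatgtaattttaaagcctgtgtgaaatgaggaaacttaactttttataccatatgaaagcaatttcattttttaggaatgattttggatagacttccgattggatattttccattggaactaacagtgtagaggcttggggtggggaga
The Neurod2 stretch held 2 GC-boxes, 1 CAGATG and 1 TGACG, and the Bcl11b, Neurod6 and Mef2c stretches held no match to any of the 7 motifs searched, which were these, the CAGCTG E-box, the MEF2 element CTANNNNTAG, the homeodomain core TAATTA and the AP-1 element TGANTCA. Of 32851 RefSeq promoters of 300 bases, 35.7% held a GC-box, 17.2% CAGATG, 20.8% TGACG, 16.3% CAGCTG, 3.69% CTANNNNTAG, 5.29% TAATTA and 7.81% TGANTCA. Over the full 300 bases the GC content was 43.0% for Bcl11b, 55.3% for Neurod2, 46.3% for Neurod6 and 35.7% for Mef2c, against a median of 52.7% for all promoters. The promoters of Emx1 (74.0% GC) and Neurod1 (66.7% GC) held 4 GC-box matches each. A match describes the letters and not a bound site.

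Bcl11b (ENSMUSG00000048251.15, chr12:107910403-108003602, minus strand) had TSS coverage of 66.6, 62.0, 60.4, 73.2 and 61.1% in Tip60 cKO and 70.4, 74.9, 69.7, 52.5 and 68.1% in control. The values were intermixed, with means of 64.6 ± 5.36% and 67.1 ± 8.55% (exact permutation p = 0.595). Its difference was -8.69 points in lane 7 and 6.79 in lane 8. Mef2c (ENSMUSG00000005583.16, chr13:83504034-83667080, plus strand) had no peak at its first TSS in 9 libraries and 6.77% coverage in control replicate 5. Emx1 (ENSMUSG00000033726.8, chr6:85187438-85204462, plus strand) had 37.2, 40.1, 45.5, 44.9 and 29.6% in Tip60 cKO and 66.2, 40.1, 49.8, 49.8 and 55.5% in control. Only control replicate 2 lay within the Tip60 cKO range. The means were 39.5 ± 6.49% and 52.3 ± 9.53% (exact permutation p = 0.0476, adjusted p = 0.271), with differences of -11.1 points in lane 7 and -15.3 in lane 8. When the same number of strongest peaks was taken from each list, the Emx1 difference shrank to -3.60 points (exact permutation p = 0.579). The p was 0.0635 to 0.0873 without Tip60 cKO replicate 1, 2 or 5 or control replicate 1, 3, 4 or 5.

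The strength of the TSS peaks was compared by rank. In each library, the strongest peak of each TSS window was scored by the percent rank of its fold enrichment among the windows of all 55413 genes, those without a peak included, and a window without a peak was set to 0. The lowest score a peak received therefore differed with the list, from 65.2 to 72.0 in Tip60 cKO libraries and from 65.2 to 67.9 in control libraries. Mean scores in Tip60 cKO and control were 79.7 and 82.8 for Prox1, 89.2 and 89.8 for Zbtb20, 91.5 and 90.3 for Neurod1, 93.2 and 96.7 for Neurod2, 75.1 and 75.1 for Neurod6, 95.0 and 95.3 for Bcl11b, and 87.7 and 89.2 for Emx1. The largest limma difference was that of Neurod2 (-3.50 ± 2.62, SE, adjusted p = 0.607), and that of Neurod1 was positive (1.198 ± 2.49, adjusted p = 0.853). None of the 7 fitted members was called, against 0.157% of 21672 genes called lower and 0.0784% called higher. Mef2c, with a peak in 1 list, was not fitted. Signs of the Zbtb20, Neurod6 and Emx1 differences turned when peaks were ranked by pileup. Fold enrichment of the strongest TSS peak at Neurod2 was 8.01, 5.51, 7.45, 5.91 and 6.05 in Tip60 cKO and 10.25, 9.32, 12.75, 6.41 and 7.74 in control. At Bcl11b it was 6.78, 6.83, 7.45, 8.28 and 5.70 in Tip60 cKO and 8.73, 7.95, 8.62, 7.15 and 7.27 in control. The genotypes overlapped at both genes. The relative change of the mean was -29.1% at Neurod2 (exact permutation p = 0.0397, unadjusted) and -11.8% at Bcl11b (exact permutation p = 0.111, unadjusted).

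Most of the 21 Zbtb20 and 31 Mef2c transcripts start inside the gene, and coverage varied between these starts. Values there are given per library without a test. The 5 Zbtb20 transcripts that start 31.5 kb downstream of the first had 9.25, 6.41, 4.999, 8.003 and 0% coverage in Tip60 cKO and 25.4, 36.1, 19.3, 24.0 and 25.3% in control. These ranges were apart, with means of 5.73 ± 3.58% and 26.02 ± 6.17%. Among the later starts of Zbtb20, Mef2c and Emx1 this was the only group without overlap. It was singled out after the values were seen, and the share over the alternative starts of all genes was not computed. The starts at 628 kb were the most covered of the gene, 58.1, 48.0, 50.1, 48.3 and 31.2% in Tip60 cKO and 60.4, 78.9, 34.4, 45.7 and 60.3% in control, and there the genotypes overlapped. At 632 kb the range was 15.3 to 42.1% in Tip60 cKO libraries and 12.2 to 63.8% in control libraries, and at 634 kb it was 12.1 to 39.2% and 10.6 to 58.9%. At 360 kb Tip60 cKO libraries had 0 to 15.6% and controls 7.69 to 20.2%. The start at 371 kb, the only one with a RefSeq promoter in the table used, had no peak in any list.

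The 11 Mef2c transcripts that start from 19.4 kb downstream of the first had 5.27, 13.9, 10.8, 23.0 and 0% coverage in Tip60 cKO and 20.6, 20.5, 24.96, 15.5 and 24.7% in control. Tip60 cKO replicate 4 lay among the controls and the other 4 lay below them, with means of 10.6 ± 8.73% and 21.3 ± 3.86%. The Mef2c starts at 26.1 kb, at 68.3 to 71.6 kb (10 transcripts) and at 121.6 kb had no peak in any list. The Emx1 start at 6.1 kb had 5.22 to 21.7% in Tip60 cKO libraries and 9.22 to 24.6% in control libraries.

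**Figure D2:**
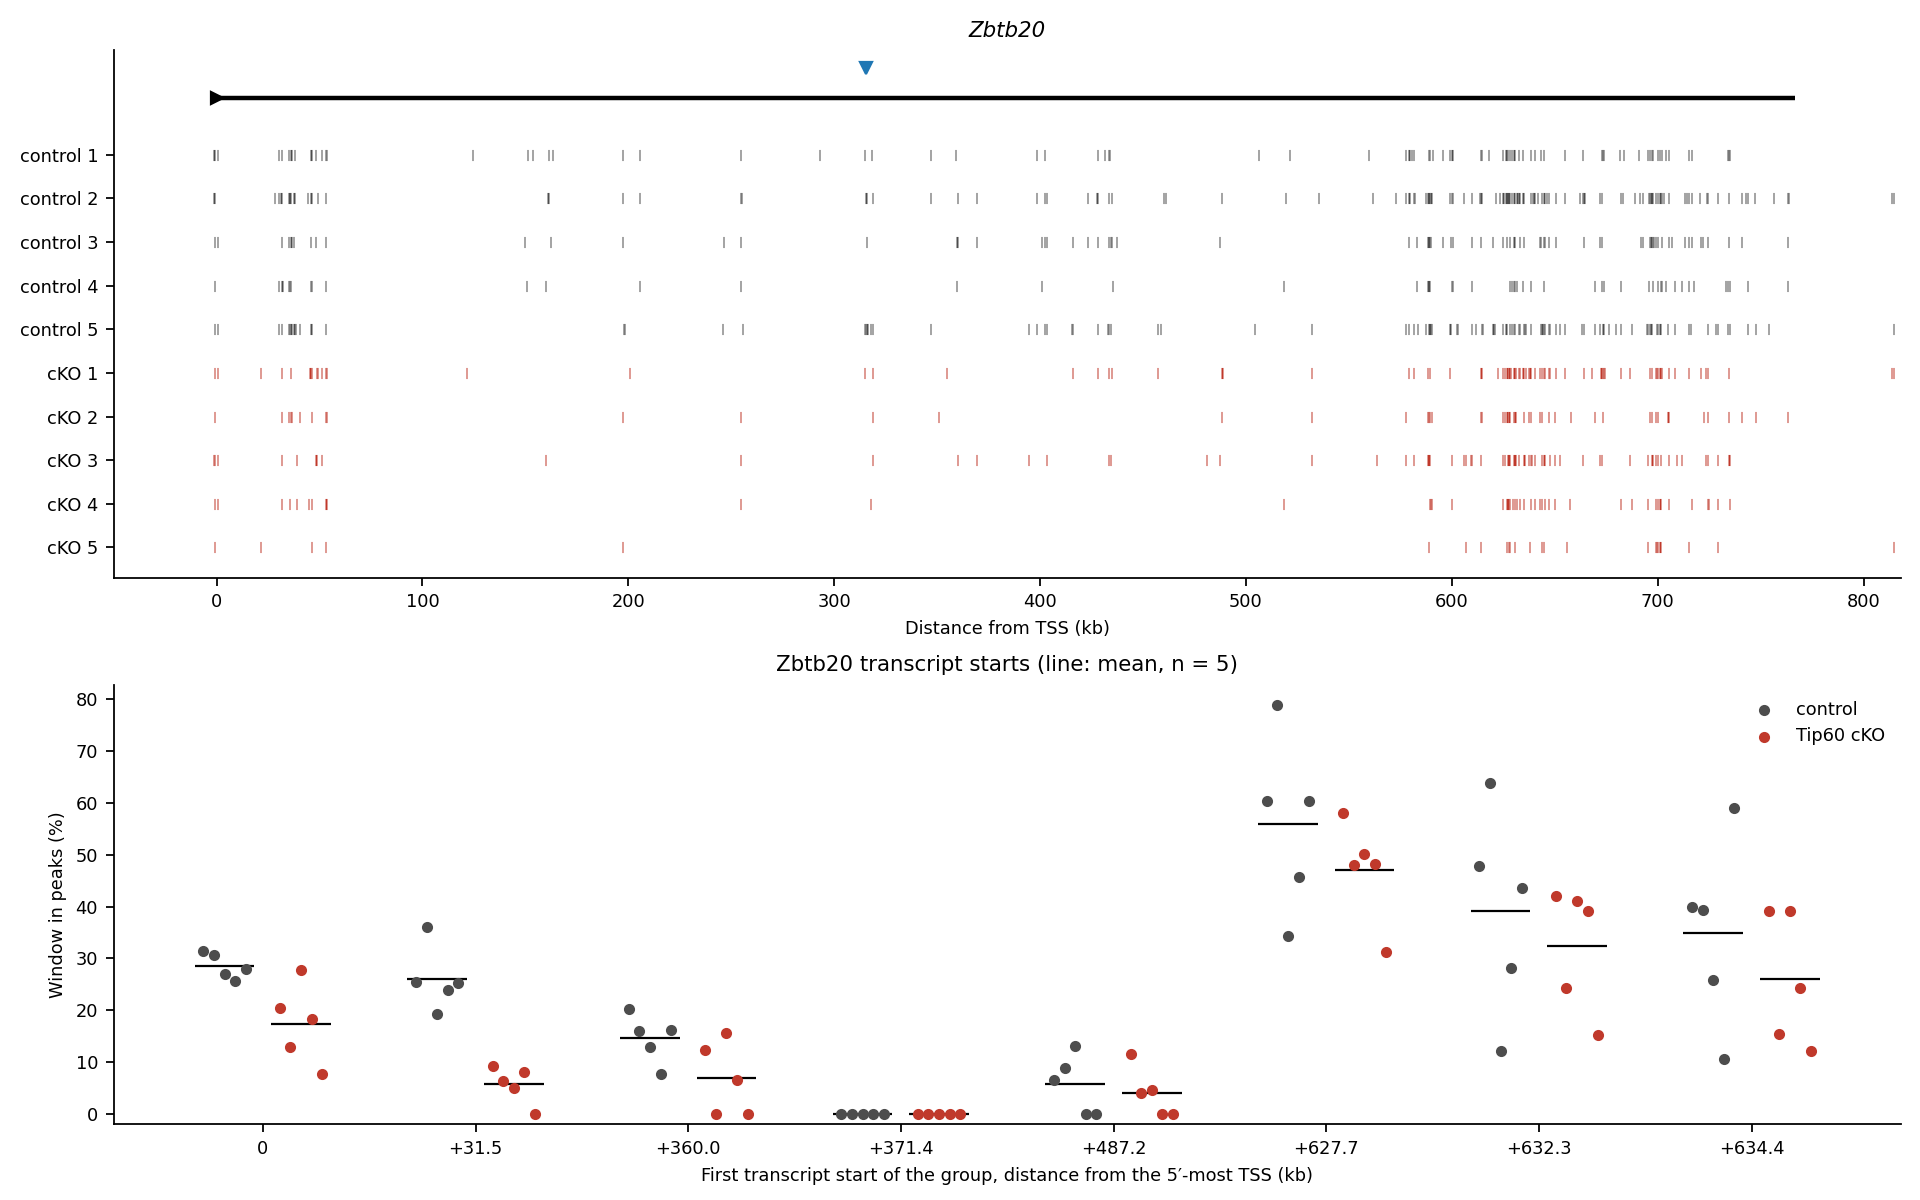
H4K12ac along Zbtb20, with distance from the first TSS in kb on the horizontal axis. The upper panel draws each library's peaks and a triangle at the called region, and the lower panel gives coverage of windows at the first TSS and 7 groups of later starts (percent of bases, lines at the mean, n = 5 each). Coverage at the starts near 31.5 kb is 0 to 9.25% in Tip60 cKO libraries and 19.3 to 36.1% in control libraries. This is the only group drawn without overlap, and at 628 kb the genotypes overlap.

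Inside the genes, outside the TSS window, Mef2c was the member whose genotypes did not overlap. Coverage of its 163 kb body was 2.54, 2.34, 2.29, 2.50 and 0.564% in Tip60 cKO and 3.66, 3.58, 4.05, 2.98 and 5.03% in control. The highest Tip60 cKO value was lower than the lowest control value. The means were 2.05 ± 0.835% and 3.86 ± 0.758%, a relative change of -47.0% (exact permutation p = 0.00794, adjusted p = 0.228). The body held 8, 9, 8, 6 and 2 peaks in Tip60 cKO and 12, 10, 16, 11 and 17 in control. The difference was -1.37 points in lane 7 and -2.47 in lane 8, and taking equally many peaks per list left -0.973 (exact permutation p = 0.0397) with overlapping genotypes. Among 15012 genes with a body of at least 1.0 kb and any coverage, 3.43% had lower Tip60 cKO values without overlap and 12.1% had an unadjusted p under 0.05 with lower values. Among the members the count was 1 of 8 for both.

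Zbtb20 had body coverage of 5.08, 3.20, 4.06, 3.04 and 1.37% in Tip60 cKO and 5.54, 8.14, 4.31, 3.28 and 7.17% in control, with overlap (exact permutation p = 0.0635). Bcl11b was the most widely marked of the long genes, with 38.004, 21.7, 33.9, 25.9 and 13.97% of its body in peaks in Tip60 cKO and 38.2, 46.0, 31.8, 21.5 and 42.3% in control. These ranges overlapped (26.7 ± 9.57% against 36.0 ± 9.65%, exact permutation p = 0.183), and 36 to 72 peaks lay there in Tip60 cKO and 48 to 71 in control. Prox1 had 1.72 to 4.37% in Tip60 cKO libraries and 1.38 to 9.90% in control libraries (exact permutation p = 0.167), and Emx1 4.44 to 13.7% and 9.13 to 15.5% (p = 0.214). The short bodies of Neurod1 (33.6 to 41.7% and 38.3 to 43.0%, p = 0.198) and Neurod2 (24.3 to 82.2% and 45.2 to 85.2%, p = 0.587) overlapped between genotypes by the same exact test. Neurod6 had body peaks in Tip60 cKO replicate 1 and in controls 1 to 3 only.

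The flanks, up to 50 kb on either side and outside the TSS window, gave the widest separation at Prox1. Flank coverage there was 2.06, 1.53, 1.72, 1.24 and 1.36% in Tip60 cKO and 4.66, 6.31, 4.61, 2.57 and 7.02% in control. The highest Tip60 cKO library lay below the lowest control. The means were 1.58 ± 0.325% and 5.04 ± 1.73%, a relative change of -68.6% (exact permutation p = 0.00794, adjusted p = 0.153), and 3 to 4 peaks lay there in Tip60 cKO against 6 to 17 in control. The difference was -3.42 points in lane 7 and -3.50 in lane 8, and with equally many peaks per list it was -2.07 (exact permutation p = 0.00794). With flanks of 20 kb it was -2.04 and the genotypes overlapped (exact permutation p = 0.0159). Both sides took part: upstream coverage was 2.12 to 3.80% in Tip60 cKO libraries and 4.43 to 8.43% in control libraries, and downstream it was 0 to 1.07% and 0.788 to 5.67%.

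Neurod1 was the other gene with separate flank ranges. Its values were 2.44, 2.24, 2.28, 2.49 and 1.95% in Tip60 cKO and 2.71, 3.22, 3.22, 2.69 and 2.55% in control, a relative change of -20.8% (exact permutation p = 0.00794, adjusted p = 0.153). The lanes gave -0.732 and -0.396 points. The difference fell to -0.117 with equally many peaks per list (exact permutation p = 0.413) and was -0.353 with flanks of 20 kb (p = 0.683). Downstream coverage at Neurod1 was 1.04 to 1.67% in Tip60 cKO libraries and 1.96 to 3.31% in control libraries. Upstream it was 2.9 to 3.5% and 3.03 to 4.08%, with overlap. A Cerkl exon lies on the downstream side. Bcl11b flanks had 9.73, 5.63, 6.52, 7.34 and 3.77% in Tip60 cKO and 11.1, 11.9, 11.2, 6.75 and 9.72% in control, overlapping only through control replicates 4 and 5 (exact permutation p = 0.0397, adjusted p = 0.237, lane differences -4.11 and -2.68, p = 0.0952 with equally many peaks). Emx1 flanks had 8.67, 7.70, 8.19, 6.62 and 2.41% in Tip60 cKO and 11.7, 12.2, 13.2, 7.02 and 10.97% in control, overlapping only through control replicate 4 (exact permutation p = 0.0317, adjusted p = 0.220, lane differences -4.20 and -4.48). The Bcl11b p was 0.0556 to 0.0714 when any library except Tip60 cKO replicate 1 or control replicate 4 was left out, and the Emx1 p was 0.0635 without control replicate 1, 2, 3 or 5. In all, 4 of 8 members had lower flanks at an unadjusted p under 0.05, against 18.9% of 39767 genes, and 2 of 8 had no overlap, against 5.1%. The difference was negative at 83.9% of these genes.

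The flanks of the other 4 genes overlapped between genotypes. Neurod2 lies among Cdk12, Ppp1r1b and Stard3, and its flanks were 10.2 to 33.5% covered in Tip60 cKO and 21.6 to 36.1% in control (exact permutation p = 0.190). Neurod6 went the other way, with 3.18, 1.86, 3.08, 2.85 and 1.87% in Tip60 cKO and 2.55, 2.43, 2.07, 1.32 and 2.03% in control (exact permutation p = 0.222). On its downstream side the values were 4.38, 2.78, 4.81, 4.54 and 3.67% in Tip60 cKO and 2.75, 3.05, 2.33, 2.102 and 2.43% in control, where only Tip60 cKO replicate 2 fell within the control range. Mef2c had no upstream flank peak in any list, and its flanks were 2.96 to 4.83% covered in Tip60 cKO and 3.23 to 4.45% in control (exact permutation p = 0.659). Zbtb20 flanks were nearly free of peaks, at most 0.963% in any library (exact permutation p = 0.825).

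**Figure D3:**
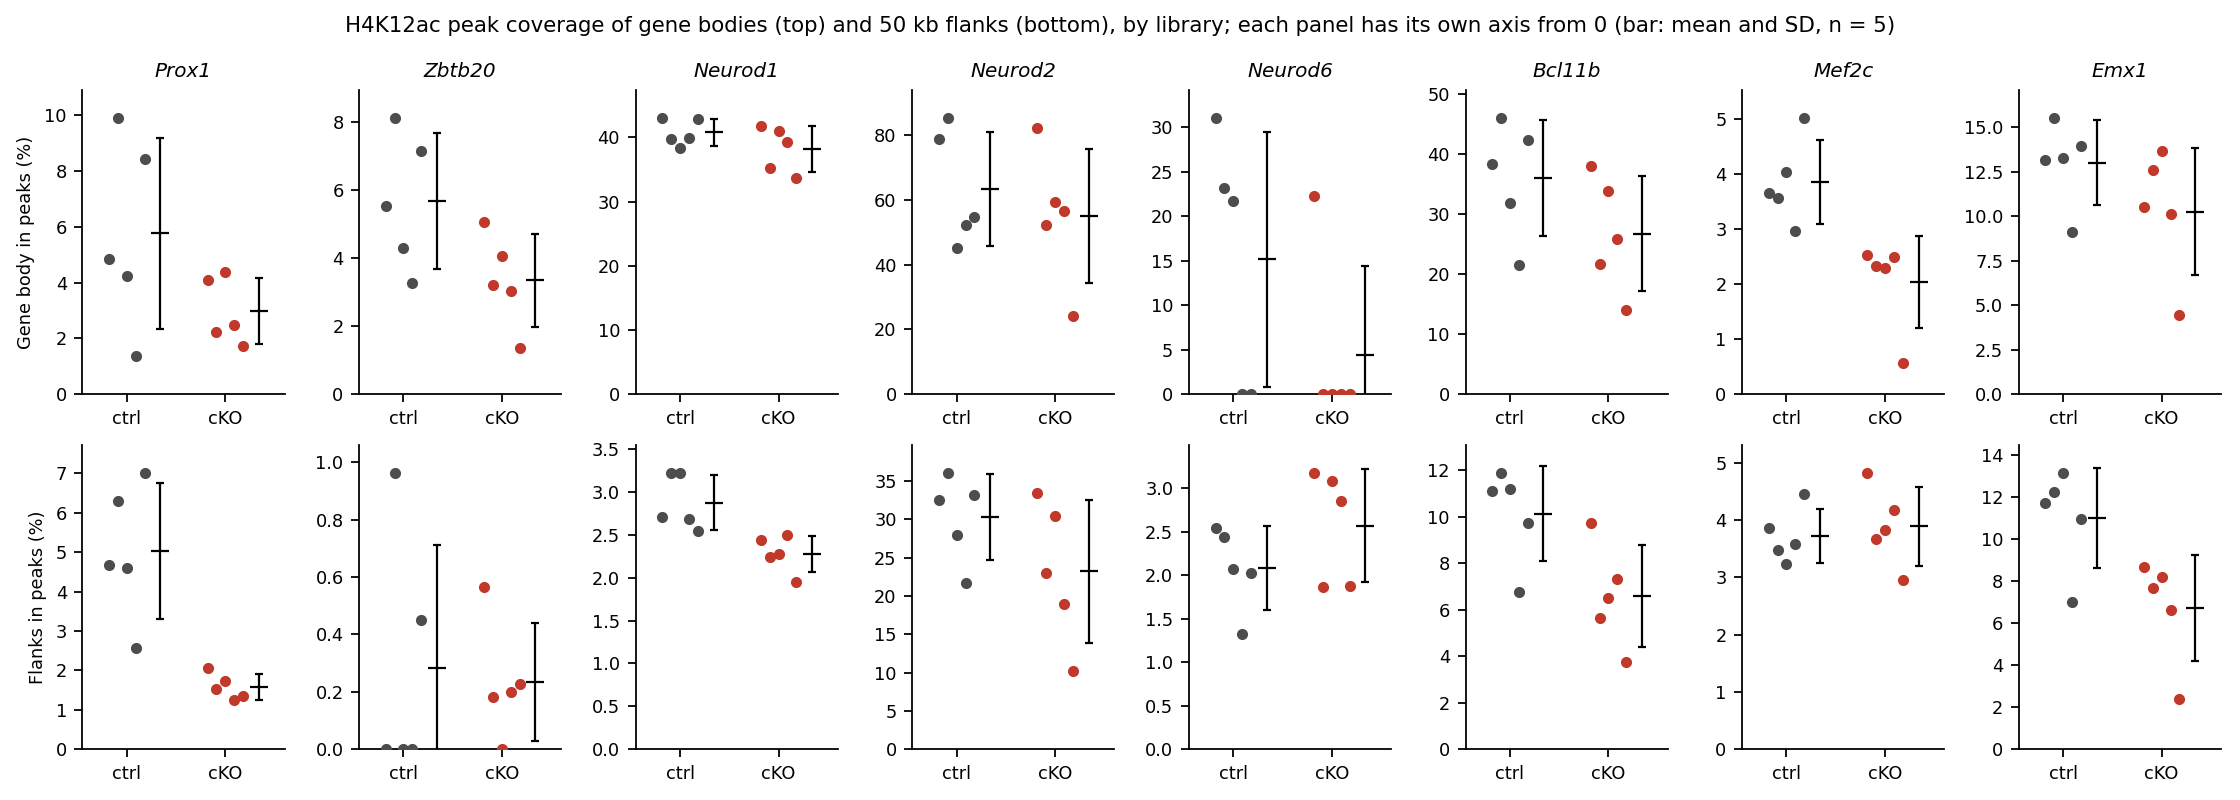
H4K12ac coverage of gene bodies and of flanks to 50 kb (percent of bases in peaks, vertical axes) at the 8 genes, with 1 point per library and bars for mean and SD (n = 5 each). The genotypes are apart at the Mef2c body and at the Prox1 and Neurod1 flanks, and overlap in the other panels.

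The peaks of the 10 lists were then merged into 144781 consensus regions, each with a peak in at least 2 lists, and 332 of them lay at the 8 genes. The score of a region in a library is the percent rank of its strongest peak among all of these regions, those without a peak included, and 0 where there was no peak. The fewer of the regions held a peak in a library, the higher was the lowest score a peak received, which was 39.8, 49.9, 47.1, 53.2 and 69.6 in Tip60 cKO replicates 1 to 5 and 41.2, 38.2, 45.2, 56.1 and 36.5 in control replicates 1 to 5, so that score differences also hold differences in list length. At the members 221 regions (66.6%) scored lower in Tip60 cKO, against 56.9% of all regions, and the median difference was -7.04 against -2.21. These values moved with the lists. When at least 5 lists had to hold a peak the shares were 59.6% and 59.4%, with medians of -2.43 and -2.66. With equally many peaks per list the shares were 60.9% and 52.4%, with medians of -5.02 and -0.653. Without Tip60 cKO replicate 5, the shortest list, they were 62.3% and 51.5%, with medians of -6.25 and -0.488. Of these 332, 40 (12.0%) had a lower score at an unadjusted limma p under 0.05 and 6 (1.81%) a higher one, against 8.34% and 3.68% of all regions. After Benjamini-Hochberg adjustment over all regions, limma called 2 member regions lower and 0 higher, against 0.476% and 0.0863% of all regions. Over all regions the 689 lower and 125 higher calls became 201 and 117 with a robust prior, 393 and 243 with equally many peaks per list and 673 and 417 without Tip60 cKO replicate 5. They were 860 and 195 without Tip60 cKO replicate 2, 843 and 205 without Tip60 cKO replicate 4, and 1268 and 139 without control replicate 4. A peak in all 10 lists was present in 59 (17.8%) of member regions and in 16.4% of all.

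The member regions were unequally shared. Zbtb20 had 141 regions, 97 lower, Bcl11b 72 with 43 lower, Neurod2 31 with 21 lower, Prox1 29 with 23 lower, Emx1 27 with 17 lower, Mef2c 14 with 9 lower, Neurod6 11 with 6 lower and Neurod1 7 with 5 lower. The median difference was most negative at Prox1 (-20.7), where all 8 regions of the downstream flank scored lower, and was -2.30 at Bcl11b. Regions with a lower score at an unadjusted p under 0.05 numbered 24 at Zbtb20 (17.0% of its regions), 6 at Emx1 (22.2%), 6 at Bcl11b (8.33%), 3 at Prox1 (10.34%), 1 at Neurod2 (3.23%) and 0 at the other genes, against 8.34% of all regions. Regions found in at least 4 more control than Tip60 cKO lists numbered 12 of 332 (3.61%), against 2.27% of all regions, and 1 (0.301%) was found in at least 4 more Tip60 cKO lists, against 0.497%.

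The first called region lies in an intron of Zbtb20, at chr16:43190891-43192109 (1219 bp), 316 kb from the first TSS and 6.32 kb from the nearest TSS of another gene, Gm15712. All 5 Tip60 cKO lists lacked a peak there, and its control scores were 66.9, 88.2, 68.03, 79.9 and 68.3. The limma difference was -74.3 ± 6.06 (SE, adjusted p = 0.000333). The region entered the fit through the control lists alone and its Tip60 cKO scores are 0 by the threshold of the peak caller, so the size and p of this difference rest on that threshold. The call was lost with a robust prior (adjusted p = 0.130). The next region, chr16:43190378-43190686, had a peak in 1 Tip60 cKO and 2 control lists. The other called region lies upstream of Emx1, at chr6:85158920-85160059 (1140 bp), -27.9 kb from its TSS, outside exons and 6.30 kb from the start of Spr-ps1. Its scores were 46.1, 0, 0, 0 and 0 in Tip60 cKO and 64.3, 86.3, 78.4, 88.4 and 76.3 in control, so that the genotypes did not overlap. The limma difference was -69.5 ± 10.29 (SE, adjusted p = 0.0120). Most of the lists that brought this region into the fit were control lists, and 4 of its 5 Tip60 cKO scores are 0 by the same threshold, so this size and p rest on it too. This call was lost with a robust prior (adjusted p = 0.148) and with equally many peaks per list (-43.8, adjusted p = 0.293). Both were called with lane as a term.

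Among the regions with the smallest p at the other genes, those of Prox1 and Neurod6 had nearly exclusive lists. The Prox1 region, chr1:190092421-190093524, lies 77.7 kb downstream of the TSS and scored 0, 0, 58.3, 0 and 0 in Tip60 cKO and 75.3, 80.0, 69.2, 71.7 and 96.3 in control (limma -66.8 ± 12.3, SE, adjusted p = 0.0517). It was not called in the main fit, 4 of its 5 Tip60 cKO scores are 0 by the threshold of the peak caller, and it is given as a description. A Prox1 region was called with peaks of q below 0.01, with equally many peaks per list and without Tip60 cKO replicate 3. A call at Prox1 was also made when at least 5 lists had to hold a peak. The Neurod6 region, chr6:55647736-55648123, lies 33.3 kb downstream and scored 48.8, 70.6, 52.2, 66.7 and 0 in Tip60 cKO and 0 in all 5 controls. It entered the fit through the Tip60 cKO lists alone, was not called, and is given as a description.

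The 300 central bases of these 4 regions are shown, the called regions of Zbtb20 and Emx1 and the smallest-p regions of Prox1 and Neurod6. They are followed by the strongest Neurod6 region with a peak in all 10 lists. It is shown because it held the most motif matches of the 8 such windows. All are plus-strand sequence of GRCm38.p6, and capitals mark matches to the same motifs on either strand.
Zbtb20 intron, chr16:43191187-43191486: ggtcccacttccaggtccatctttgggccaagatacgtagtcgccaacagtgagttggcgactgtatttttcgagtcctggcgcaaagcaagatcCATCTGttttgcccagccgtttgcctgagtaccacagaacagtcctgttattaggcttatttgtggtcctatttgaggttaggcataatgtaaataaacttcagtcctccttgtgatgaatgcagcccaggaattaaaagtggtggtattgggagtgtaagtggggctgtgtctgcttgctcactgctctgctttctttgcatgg
Emx1 upstream, chr6:85159302-85159601: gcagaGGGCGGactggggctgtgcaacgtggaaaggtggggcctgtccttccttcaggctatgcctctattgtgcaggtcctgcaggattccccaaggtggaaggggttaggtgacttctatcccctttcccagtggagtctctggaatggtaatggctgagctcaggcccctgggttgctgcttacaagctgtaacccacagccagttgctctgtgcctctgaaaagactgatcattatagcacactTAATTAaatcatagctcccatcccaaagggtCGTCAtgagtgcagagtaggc
Prox1 downstream, chr1:190092702-190093001: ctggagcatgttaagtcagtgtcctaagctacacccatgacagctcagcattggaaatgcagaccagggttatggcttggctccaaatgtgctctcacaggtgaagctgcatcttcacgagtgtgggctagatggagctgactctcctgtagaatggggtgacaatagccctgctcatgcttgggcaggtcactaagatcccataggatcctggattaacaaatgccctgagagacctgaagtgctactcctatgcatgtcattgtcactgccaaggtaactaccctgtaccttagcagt
Neurod6 downstream, chr6:55647761-55648060: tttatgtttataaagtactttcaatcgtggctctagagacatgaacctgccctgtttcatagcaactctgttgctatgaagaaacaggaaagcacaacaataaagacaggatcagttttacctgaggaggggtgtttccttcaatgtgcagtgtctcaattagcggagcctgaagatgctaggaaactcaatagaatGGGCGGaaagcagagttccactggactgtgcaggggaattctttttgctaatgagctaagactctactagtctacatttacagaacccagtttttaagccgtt
Neurod6 constant, chr6:55676676-55676975: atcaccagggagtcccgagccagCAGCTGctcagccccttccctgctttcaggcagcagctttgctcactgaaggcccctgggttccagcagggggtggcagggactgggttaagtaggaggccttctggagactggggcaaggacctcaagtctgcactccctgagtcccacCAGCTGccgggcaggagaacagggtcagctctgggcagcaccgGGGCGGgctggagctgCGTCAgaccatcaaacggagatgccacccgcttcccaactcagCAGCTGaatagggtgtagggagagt
The Zbtb20 window held 1 match, to CAGATG read on the minus strand. The Emx1 window held a GC-box, a TAATTA homeodomain core and a TGACG read on the minus strand, the Prox1 window held none, and the Neurod6 downstream window held 1 GC-box. The constant Neurod6 window held 5 matches, which were 3 CAGCTG E-boxes, 1 GC-box and 1 TGACG, while those of Bcl11b held 3, Neurod1 2, Neurod2 and Emx1 1 each, and Prox1, Zbtb20 and Mef2c 0. Over 300-base windows of all 144781 regions, 25.3% held CAGATG, 22.9% CAGCTG, 13.3% TGACG, 12.6% GGGCGG, 3.70% CTANNNNTAG, 3.69% TAATTA and 8.19% TGANTCA.

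**Figure D4:**
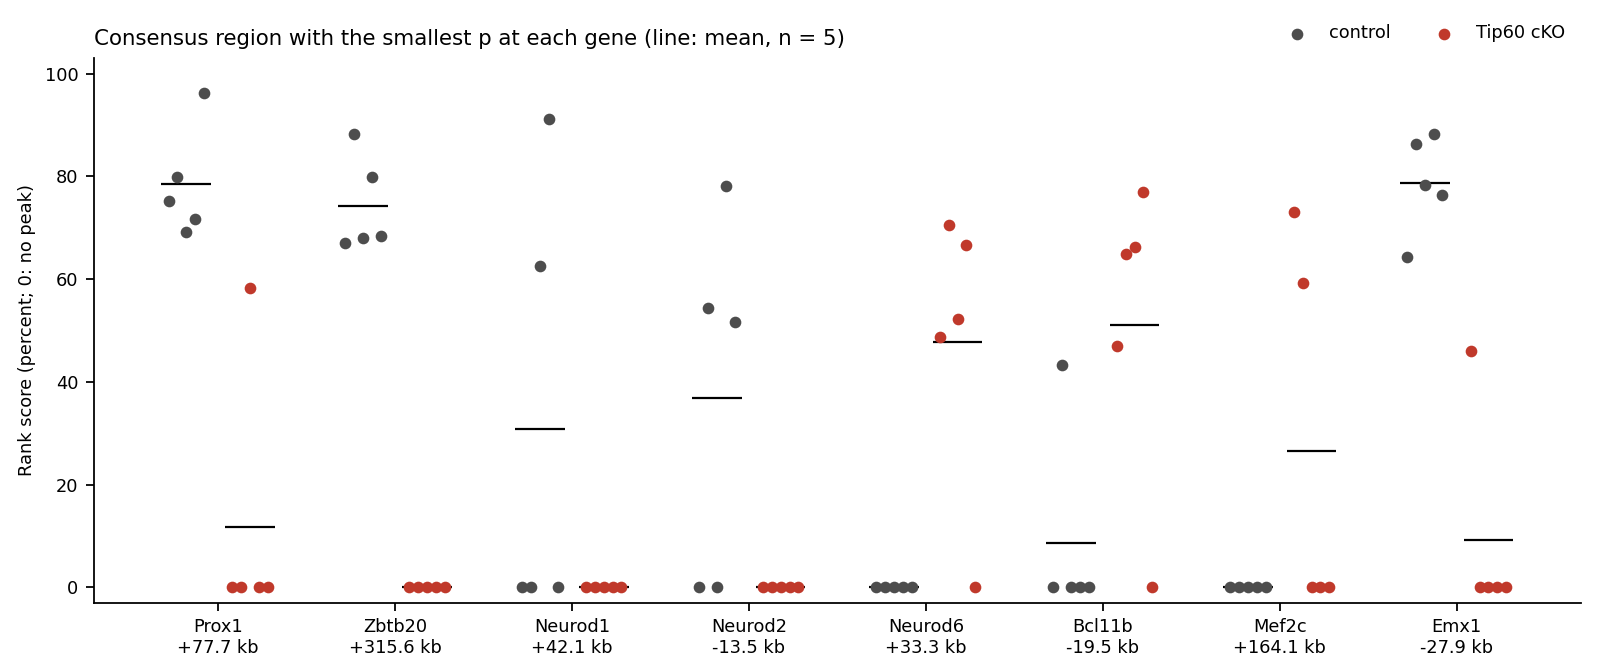
Rank scores (percent rank among all regions of a library, 0 without a peak) of the region with the smallest p at each of the 8 genes, with 1 point per library and lines at the mean (n = 5 each). The 5 control points lie above the Tip60 cKO points at Zbtb20, Emx1 and Prox1, and at Neurod6 the controls are all at 0 and 4 of 5 Tip60 cKO libraries lie between 48.8 and 70.6.

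The smallest p at the remaining genes did not pass adjustment. The Bcl11b region at chr12:108022748-108023509, -19.5 kb from the TSS, scored 46.9, 64.8, 66.2, 77.03 and 0 in Tip60 cKO and 43.3 in control replicate 2 only (limma adjusted p = 0.351). The Neurod2 region at chr11:98342838-98343360 had no peak in Tip60 cKO and scores of 54.4, 78.1 and 51.7 in control replicates 2, 4 and 5. The Neurod1 region at chr2:79414437-79414964, inside Cerkl, had peaks in control replicates 3 and 4 only, and the Mef2c region at chr13:83667940-83668257 in Tip60 cKO replicates 1 and 2 only. These last regions had peaks in lists of 1 genotype alone and are given as a description.

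Each gene also had strong regions that every library shared. Mef2c, with no peak at its first TSS in 9 libraries, had a region of 9578 bp at chr13:83712616-83722193, 213 kb from that TSS and at the start of C130071C03Rik, with scores of 97.1 to 99.8 in Tip60 cKO libraries and 96.0 to 99.9 in control libraries. Bcl11b had a 7818 bp region inside the gene at chr12:107975066-107982883 (94.2 to 99.1 and 93.7 to 98.3), and Neurod2 a 7363 bp region at chr11:98293249-98300611 (95.7 to 99.3 and 97.2 to 99.6). At Zbtb20 the region lay at chr16:43574314-43576197, 699 kb from the first TSS (79.0 to 92.4 and 84.1 to 97.5), and at Prox1 at chr1:190174538-190175902, -4.51 kb from the TSS within Prox1os (84.5 to 98.3 and 95.7 to 96.9). At Neurod1 it overlapped a Cerkl exon, chr2:79428519-79429288 (92.5 to 98.8 and 84.2 to 95.8). The Neurod6 region, chr6:55675539-55677643, was 4.67 kb downstream (90.4 to 96.7 and 85.1 to 93.3). The Emx1 region, chr6:85218796-85221188 within Sfxn5, scored 56.8 to 90.6 in Tip60 cKO libraries and 87.4 to 94.0 in control libraries (limma adjusted p = 0.418). In each of these 8 regions the genotype ranges overlapped.

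Each genotype had its own pooled input, so the local background under the peaks was recovered from pileup and fold enrichment and set against the genome-wide background. Its mean of library medians was 1.06 in Tip60 cKO and 1.18 in control at Mef2c, 1.08 and 1.17 at Zbtb20, 1.01 and 1.09 at Neurod2, 0.999 and 1.04 at Bcl11b, and 1.0005 and 1.06 at Emx1. At Prox1 it was 0.999 and 0.9998, at Neurod1 1.02 and 1.01, and at Neurod6 1.0005 and 0.9998. All libraries of a genotype were set against the same input, so these values compare 1 input with 1 input and no test is given. The same ratio was not computed over all genes. In each library the lowest background recovered was also the commonest, so a ratio near 1 lies at the floor. The part of this background in the coverage differences was not tested.

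Other lists of transcription factors put the members in context. Of 30 other glutamatergic forebrain factors, 29 had a TSS peak in some list and 22 in all 10, and 25 had lower and 4 higher mean coverage in Tip60 cKO, with 6 lower at an unadjusted p under 0.05. The genotypes did not overlap at 2 of them, Emx2 (25.3 ± 8.02% against 43.4 ± 6.16%) and Pou3f1 (12.1 ± 4.41% against 25.9 ± 7.78%, exact permutation p = 0.00794 for both), named after their values were seen. Of 14335 protein-coding genes with a TSS peak in some list, 2923 were lower at an unadjusted p under 0.05. Lower values without overlap were found at 813 of them. Over all genes with TSS coverage these shares were 16.9% and 4.72%. The median difference of the other glutamatergic factors was -5.88 points, beside -10.2 for the members and -4.39 for protein-coding genes. Median control coverage, genes without a peak included, was 36.0% at these factors, 49.0% at the members and 10.7% at protein-coding genes. The differences in points were not scaled to it. Among the 30 factors the most negative difference was that of Etv1 (12.5 ± 6.995% against 32.7 ± 14.04%, exact permutation p = 0.0238). Mef2a, a relative of Mef2c, had 58.3 ± 8.27% against 53.8 ± 7.08% (exact permutation p = 0.405). Of 14 interneuron factors, 8 had a TSS peak in some list and 1 in all 10, with 7 higher and 1 lower, none at an unadjusted p under 0.05. Outside these lists, the protein-coding genes whose TSS coverage over the 10 libraries most resembled the mean of the members included Rhbdd3 and Ewsr1 (Pearson r = 0.977), which share a TSS window, among 9650 candidates with a median r of 0.648.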

How the data were processed

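H4K12ac ChIP-seq peak lists of 5 Tip60 cKO and 5 control libraries were analysed. The labels give the genotypes and the replicate numbers. Per the study's methods, the authors mapped reads to mm10 with STAR, took out PCR duplicates (samtools rmdup) and ran the peak caller MACS (2.1.0.20140616 per the file headers) on each library separately with q under 0.1, against input DNA that was pooled, with 1 input sample per genotype in the labels. The deposited columns used were pileup, a coverage signal in tags at the summit, fold enrichment over local background, a ratio, and the −log10 p-value and −log10 q-value per peak. The lists hold no read counts, so the read-based differential test of the study was not repeated, and interval widths depend on depth. The 21 chromosomes of the lists carry the names of GRCm38, and 0 peaks lie past a chromosome end.

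All values below were derived with Python 3.11.15, numpy 2.4.6, pandas 2.3.3, scipy 1.17.1, matplotlib 3.10.9 and R 4.3.3 with limma 3.58.1 and data.table (version 1.17.8). Coverage is the percentage of bases in peaks within 2 kb of the 5′ end of a gene, in the rest of the gene (at least 1.0 kb) and in flanks to 50 kb. It was tested by the two-sided exact permutation test over 252 assignments of 5 against 5. Consensus regions (144781 of 257454 merged intervals, with a peak in at least 2 lists) and TSS windows were scored in each library by the percent rank of the fold enrichment of the strongest peak among all regions or windows, those without a peak included and set to 0, and fitted with limma. P-values were Benjamini-Hochberg adjusted over all genes or regions. Alternative starts are transcript starts over 2 kb from the first. Lane was read from the run names. All 8 members are described; regions named are those called, the one with the smallest p per gene, and per gene the one with the highest mean control score among regions with peaks in all 10 lists outside the TSS window. Sequences come from GRCm38.p6, and RefSeq promoters matched 8 of 8 members. The members and the gene lists were chosen with earlier results of these data known. Same-numbered libraries were not paired. The limma step was tested on simulated data, where plain limma made somewhat more false calls than its adjusted p states, so a robust prior was run as an alternative. Other alternatives were a stricter q, equally many peaks per list, other windows and flanks, other rankings, lane or replicate terms, and each library left out. Some genes that the naming rules pick are not reported here.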

Additional observations from a re-analysis of the deposited data

Results flagged for a closer look

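In groups of 5 libraries, a value stood apart from the other 4 when its gap to the nearest was more than 0.71 of the group's range. This held for 13 of 120 groups tested (10.8%). Chance flags about 1 in 20 groups of continuous values, but in 7 of the 13 the other 4 libraries were all at 0 and some groups share a window or region, so the number is not an excess over chance. At the start sites, Neurod2 TSS coverage was 72.8% in control replicate 5 (57.6 to 61.6% in the others), and the Neurod6 TSS rank score was 87.6 in Tip60 cKO replicate 1 (69.8 to 74.0 in the others). Control replicate 5 alone had Mef2c TSS coverage, 6.77%, with a rank score of 66.9. Among alternative starts, control replicate 3 alone had a peak at the Mef2c start at 129 kb (6.67%) and was alone at 0% at the start at 149 kb (5.40 to 7.35% in the others), and control replicate 1 had 9.22% at the Emx1 start at 6.1 kb (20.2 to 24.6%).

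Neurod6 body coverage was 22.3% in Tip60 cKO replicate 1 and 0 in the other 4. Mef2c body coverage was 0.564% in Tip60 cKO replicate 5, which had the shortest list (2.29 to 2.54% in the others). The upstream flank of Neurod1 had 4.08% in control replicate 2 (3.03 to 3.29%). At single regions a lone library had a peak where the other 4 of its genotype had none: Tip60 cKO replicate 3 at Prox1, 77.7 kb from the TSS (rank score 58.3), Tip60 cKO replicate 1 at Emx1, -27.9 kb from the TSS (46.1), and control replicate 2 at Bcl11b, -19.5 kb from the TSS (43.3).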

How the results depend on the processing

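Of 586 alternative values for single genes and regions, 511 kept direction and side of the threshold, 37 lost it, 14 gained it, 3 moved and 21 reversed. Members with lower TSS coverage at an unadjusted exact p under 0.05 numbered 3, against 1 with windows of 1 kb and 1 to 3 when single libraries were left out (1 without Tip60 cKO replicate 1, 2 or 5 or control replicate 5), and those without overlap numbered 0, against 0 to 2 (2 without Tip60 cKO replicate 3, 1 without control replicate 2). For gene bodies the 1 member became 3 with equally many peaks per list, where the count without overlap went from 1 to 0, and 1 to 3 when libraries were left out (3 without control replicate 4, 2 without Tip60 cKO replicate 1). For flanks the 4 members became 2 with equally many peaks and 2 to 4 with libraries left out (2 without control replicate 1, 2, 3 or 5), and the 2 without overlap became 1 with equally many peaks, 0 with flanks of 20 kb and 2 to 3 with libraries left out (3 without control replicate 4). Outside the TSS windows of other genes, 1 member (Neurod6) had higher flanks, against 0. The regions called lower by limma, 2, became 4 when a peak in 5 lists was required, 0 with a robust prior, 12 by presence in at least 4 more lists (3286 of all 144781 regions), and 2 to 4 with libraries left out (2 without Tip60 cKO replicate 5, 4 without control replicate 3 or 4, 3 without any of the others). The regions called higher, 0, became 1 by presence (719 of all regions) and 0 to 1 with libraries left out (1 without Tip60 cKO replicate 2 or 5).

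With a replicate block, 1 member region (Zbtb20) was called lower and the call at Emx1 was lost. Over all regions 227 were then called lower and 27 higher. The numbers did not pair the libraries, since same-numbered deviations correlated between -0.0102 and 0.0230.

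Reversed differences were these, and the cause was not tested. With equally many peaks per list the body difference was 4.47 points at Neurod6 and 2.58 at Emx1, and the flank difference 0.0282 at Zbtb20. With ranking by pileup the TSS score difference was 0.638 at Zbtb20, 1.09 at Neurod6 and 0.0725 at Emx1. With single libraries left out, the flank difference ran from -0.129 to 0.123 at Zbtb20 and from -0.0672 to 0.400 at Mef2c, and the TSS score difference from -2.52 to 2.15 at Zbtb20, -3.17 to 1.27 at Neurod6, -1.09 to 0.645 at Bcl11b and -3.18 to 0.573 at Emx1. Lists of unequal length and a threshold on peaks limit what a missing peak shows.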
